A study of Mus musculus with 9 samples.

Results

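Toll-like receptors (TLRs) signal through a small set of cytoplasmic proteins, and this report follows the genes of those proteins in dendritic cells (DCs). The 10 genes were taken by symbol from the deposited counts, out of 55471 genes in all: the LPS co-receptor *Cd14*, the adaptors *Myd88*, *Tirap*, *Ticam1* and *Ticam2*, the kinases *Irak1*, *Irak2*, *Irak3* and *Irak4*, and the ubiquitin ligase *Traf6*. All 10 passed the filter on low counts and were tested. DCs were grown from bone marrow of female wild-type C57BL/6 mice, 8 to 20 weeks old, in 20 ng/mL GM-CSF, and were harvested on day 8 or 9. The cells carried no engineered allele. They were left unstimulated, or were given LPS at 100 ng/mL or IFN-β at 1000 U/mL, for 6 h, with 3 libraries (A, B and C) in each group. Such cultures are mixtures of DC-like and macrophage-like cells, and the labels do not say how many mice or cultures stand behind the letters, so p-values measure the spread between these libraries, which may be partly technical.

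LPS, a lipid of the outer membrane of Gram-negative bacteria, is handed by CD14 to the complex of TLR4 and MD-2 (gene *Ly96*). The cytoplasmic TIR domain of TLR4 then recruits adaptors in pairs. TIRAP brings in MyD88 at the plasma membrane, and TRAM (gene *Ticam2*) brings in TRIF (gene *Ticam1*) on endosomes, which leads to type I interferon. MyD88 assembles with the kinases IRAK4, IRAK1 and IRAK2 into the Myddosome, which hands the signal to TRAF6 and on to NF-κB and MAP kinases. IRAK-M (gene *Irak3*) lacks kinase activity and is known as an inhibitor of this relay in macrophages and DCs. IFN-β reaches cells through its own receptor and STAT proteins, not through these adaptors. The comparison of the stimuli asks which parts of the TLR machinery change with LPS, with added IFN-β or with both. Since LPS leads to type I interferon too, its direct changes and those through interferon cannot be told apart here.

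The DNA just before the start sites was searched in each of the genes with promoter sequence, and only stretches that hold a match are shown. They were not picked by the response of the gene. *Myd88* and *Irak2* rose with both stimuli and *Irak3* rose with LPS, as described below. RefSeq promoter sequence (GRCm38.p6) matched 8 of the 10 genes, at 11 start sites. *Cd14* and *Ticam2* had no such sequence and were not searched. In the 250 bases before each start, both strands were searched for 9 letters of an NF-κB site (GGGANNTTC), the core of the interferon-stimulated response element (ISRE, GAAANNGAA), the interferon-γ-activated site bound by STAT dimers (GAS, TTCNNNGAA) and the AP-1 site (TGANTCA). Matches were found at the start site of *Myd88* and at 1 of the 2 start sites of *Irak3*. *Irak2* had none, nor had *Traf6* and *Ticam1*, which also rose with both stimuli. The *Myd88* window lies inside the annotated span of the gene given below, and all 250 bases of the other *Irak3* window are annotated exon. *Myd88* had a GAS match 46 bases before the start that overlaps an ISRE match 40 bases before it, and *Irak3* had an ISRE match on the opposite strand, 102 bases before the start. The capitals mark the matched letters, which are merged in *Myd88*, and both stretches read 5′ to 3′ on the minus strand, from chr9:119340042-119340104 and chr10:120202216-120202272:
Myd88: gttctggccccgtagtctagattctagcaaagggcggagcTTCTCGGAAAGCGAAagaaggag
Irak3: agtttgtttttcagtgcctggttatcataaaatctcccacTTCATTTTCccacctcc
Over 32536 promoters of this length, 7.15% held the ISRE letters, 7.04% the GAS letters, 3.22% the NF-κB letters and 6.73% the AP-1 letters. No NF-κB or AP-1 letters were found in the windows of the 8 genes searched, which says only that the letters are not in those windows. It says nothing about *Cd14* or *Ticam2*. A match is a description of the sequence and not a binding site.

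Between 33425803 and 43735199 counts per library fell on genes. Expression is given as CPM, a gene's counts relative to the library total, after scaling with TMM factors. These factors correct for composition and ran from 1.18 to 1.26 in unstimulated, 0.783 to 0.841 in LPS-activated and 0.977 to 1.02 in IFN-β-treated DCs. Genes were called changed at an adjusted p-value under 0.05. *Il12b*, a cytokine gene induced through TLRs, averaged 3.41 CPM in unstimulated, 3615 CPM in LPS-activated and 4.28 CPM in IFN-β-treated DCs, and the interferon-induced *Ifit1* averaged 25.9, 2289 and 788.5 CPM, so the libraries matched their labels. All 12 DC and macrophage markers were detected, with a summed level of 7207 to 10330 CPM. The marker lists of T cells, B cells, NK cells, mast cells and erythroid cells summed to at most 0.531 CPM in any library. Neutrophil markers summed to 369 to 483 CPM in unstimulated, 249 to 327 CPM in LPS-activated and 338 to 433 CPM in IFN-β-treated DCs, nearly all from *Mmp8*, while *Ly6g*, *Mpo* and *Elane* averaged at most 0.162 CPM. Stromal markers summed to 22.9 to 39.0 CPM with LPS against 4.56 to 6.05 CPM without stimulation, through *Pdgfrb*. In bulk RNA, fewer cells of a type and less RNA per cell cannot be told apart, and the part of these markers in the results was not tested.

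LPS changed 9 of the 10 genes, with 7 higher and 2 lower. *Cd14*, *Irak3*, *Myd88*, *Irak2*, *Traf6*, *Ticam1* and *Ticam2* rose and *Irak1* and *Irak4* fell. Of all 16260 genes tested, LPS changed 68.2% (32.8% higher and 35.4% lower), so that 9 of 10 stands against a high background. The median log2 fold change of the 10 genes was 0.74, against -0.04 over all genes tested. IFN-β changed 6 of the 10, with *Myd88*, *Irak2*, *Traf6* and *Ticam1* higher and *Irak1* and *Cd14* lower, where it changed 46.9% of all genes (23.6% higher and 23.3% lower). The median of the 10 under IFN-β was 0.15, against -0.02 over all genes. The response to IFN-β differed from that to LPS in 6 of the 10, with *Irak1* higher and *Cd14*, *Irak3*, *Myd88*, *Ticam1* and *Irak2* lower under IFN-β, against 49.1% of all genes (25.8% higher and 23.3% lower). Both stimuli were compared with the same unstimulated libraries. The libraries of the groups compared did not overlap in 9, 6 and 7 of the 10 genes in these comparisons, beside 72.4%, 58.1% and 56.8% of all genes tested, each non-overlapping member with p = 0.1 in an exact two-sided permutation test, the smallest that 3 libraries against 3 allow. When libraries were scaled by their size alone, which moved the median of all genes by -0.58 with LPS, -0.31 with IFN-β and 0.27 between the stimuli, the LPS changes of *Ticam1* and *Traf6* (0.15 and 0.17), the IFN-β change of *Ticam1* (0.03) and the differences of *Ticam1* and *Irak2* between the stimuli (-0.11 and -0.08) were no longer called, and *Ticam2* turned to -0.19 with LPS. The median of the 10 genes was then 0.16 with LPS, with 4 called higher and 3 lower, and turned to -0.16 with IFN-β, with 3 called higher and 5 lower. Over all genes the share of higher among the called genes fell at the same time, from 48.1% to 21.9% with LPS and from 50.3% to 22.3% with IFN-β. With the letters A, B and C entered as a block, the calls were 10, 7 and 9, and the genes added are named below. Over all 16260 genes the block raised the calls as well, from 11084, 7631 and 7989 to 11950, 9151 and 9425.

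**Figure D1:**
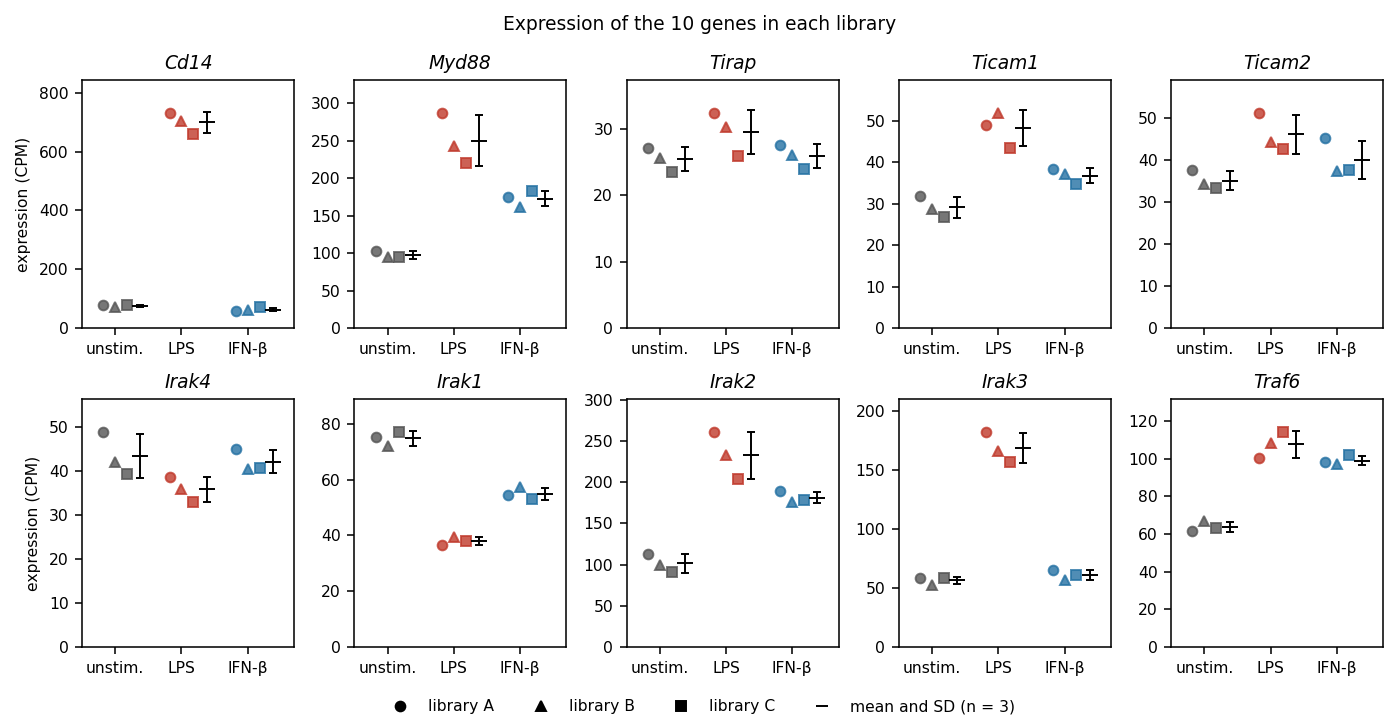
Expression in CPM (y axis, from 0) of each gene in the unstimulated, LPS and IFN-β libraries; symbols are libraries A, B and C and black bars the mean and SD (n = 3). Cd14 sits between 661.8 and 733.3 CPM with LPS and below 80 CPM elsewhere, and Irak3 separates the LPS libraries from both other groups.

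**Figure D2:**
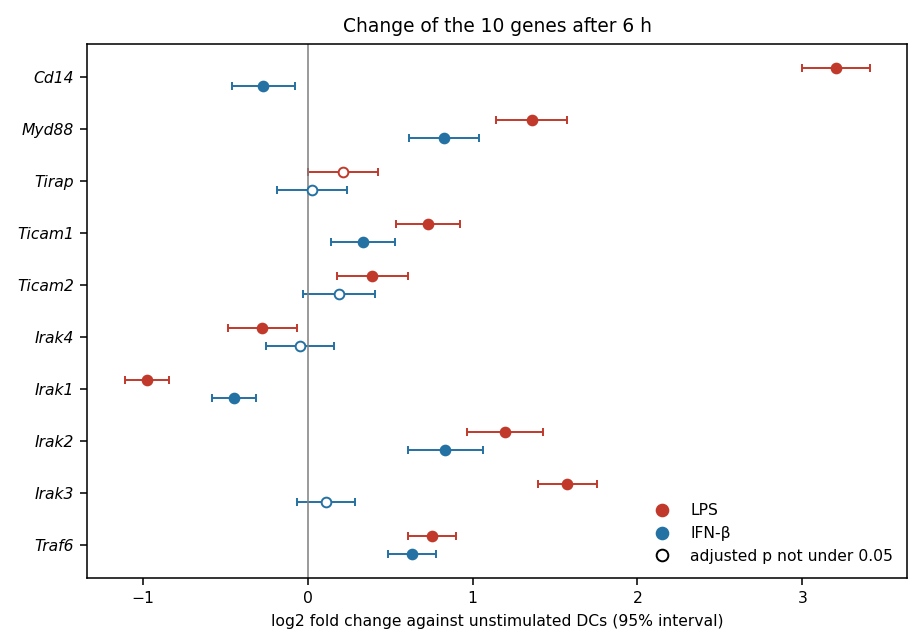
Log2 fold change (x axis) of each gene against unstimulated DCs, with the 95% interval, for LPS (red) and IFN-β (blue); open points have an adjusted p that is not under 0.05. Cd14 lies at 3.21 with LPS and -0.27 with IFN-β, and Irak1 lies left of 0 with both.

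Levels per kilobase of exon compare genes only roughly, since the length counts all annotated exons and not the transcripts made here. The ratios and shares below use the same lengths. *Cd14* had the highest level in unstimulated DCs at 43.8 ± 2.2 CPM per kb (SD, n = 3), followed by *Myd88* at 37.8 ± 1.8 and *Irak2* at 23.0 ± 2.6. *Irak1* (15.9 ± 0.56) and *Irak3* (15.4 ± 0.86) came next and overlapped in their libraries. *Ticam1* (9.73 ± 0.85) overlapped *Irak4* (8.63 ± 0.99), and *Irak4* overlapped *Traf6* (8.10 ± 0.33). *Ticam2* (6.07 ± 0.40) and *Tirap* (5.17 ± 0.38) were lowest, and *Traf6* did not overlap *Ticam2*. With LPS the order changed in the middle. *Cd14* (404.0 ± 20.8) and *Myd88* (97.1 ± 13.3) stayed at the top, *Irak2* (52.7 ± 6.4) and *Irak3* (45.8 ± 3.5) overlapped behind them, and *Irak1* (8.08 ± 0.32) moved below *Ticam1* (16.1 ± 1.5) and *Traf6* (13.6 ± 0.90) into the lowest 4, where each gene overlapped the next. With IFN-β *Myd88* was highest at 67.1 ± 4.1 CPM per kb, and *Irak2* (41.01 ± 1.53) and *Cd14* (36.3 ± 3.8) overlapped. *Traf6*, *Ticam1* and *Irak1* followed one another between 11.7 and 12.5. There *Traf6* overlapped *Ticam1*, and *Ticam1* overlapped *Irak1*. *Tirap* had the lowest mean in all 3 groups.

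**Figure D3:**
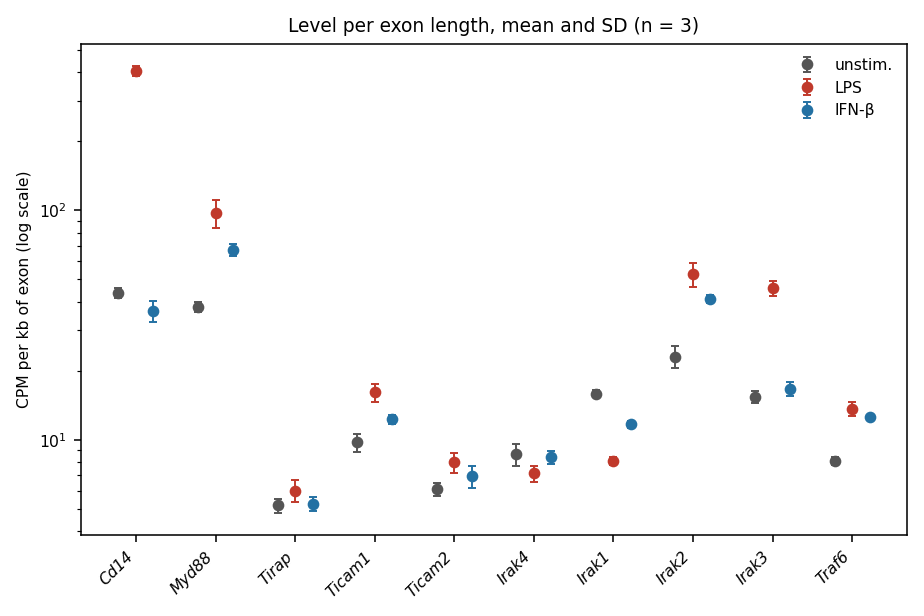
Mean level in CPM per kb of exon (log axis) with SD (n = 3) of each gene in unstimulated (grey), LPS-activated (red) and IFN-β-treated (blue) DCs. Cd14 with LPS, at 404.0, stands highest, and Tirap lies between 5.17 and 6.00 in every group.

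*Cd14* encodes the surface protein that binds LPS and passes it to TLR4 and MD-2. It is a gene of 1 exon block on chromosome 18 (GRCm38, 36725067 to 36726798, minus strand) and shares exon bases with no other gene. In libraries A, B and C its level was 79.0, 71.6 and 76.9 CPM without stimulation, 733.3, 704.0 and 661.8 CPM with LPS, and 57.1, 61.8 and 70.0 CPM with IFN-β. The LPS libraries were far above all others and the IFN-β libraries were all below the unstimulated ones. LPS raised *Cd14* by 3.21 on the log2 scale (SE 0.09, adjusted p = 1.75e-09), a 9.22-fold change that was the 501st highest of 16260 genes. With IFN-β it fell by 0.27 (SE 0.09, adjusted p = 0.0247). That small decrease was lost when unstimulated library A or C, or IFN-β library A or B, was left out (adjusted p 0.0583 to 0.0918). The difference between the responses was -3.48 (SE 0.09, adjusted p = 3.09e-09), with all IFN-β libraries below all LPS libraries.

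*Tlr4* fell with LPS, where *Cd14* rose. *Tlr4* averaged 140.3 ± 1.7 CPM without stimulation, 90.9 ± 17.2 CPM with LPS and 185.3 ± 15.3 CPM with IFN-β, a log2 change of -0.63 (SE 0.12, adjusted p = 0.000832) under LPS and of 0.40 (SE 0.12, adjusted p = 0.0185) under IFN-β. The rise under IFN-β was lost without unstimulated library B or IFN-β library A (adjusted p = 0.0506 and 0.0746), and with library size only it was 0.09 (0.507). *Ly96* was low, at 5.95 ± 1.06 CPM, and rose by 1.44 (SE 0.16) with LPS and by 0.51 (SE 0.16) with IFN-β. Its rise with IFN-β was lost without unstimulated library C or IFN-β library A (adjusted p = 0.0720 and 0.0709), and with library size only it was 0.21 (0.240). The ratio of *Cd14* to *Tlr4* per exon base, in which the scaling of a library cancels, came to 1.80, 1.62 and 1.78 in the unstimulated libraries A to C. It was 24.5, 31.5 and 20.2 with LPS and 0.904, 1.10 and 1.29 with IFN-β, so the 3 groups did not overlap. This ratio and those below were chosen after the values were seen and are descriptions. Macrophage markers moved in both directions with LPS, where *Adgre1* averaged 368.8 CPM against 157.7 CPM without stimulation and *Csf1r* 562.3 against 1101 CPM. With IFN-β they averaged 164.7 and 1055 CPM, and their part in the *Cd14* result was not tested.

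*Myd88* encodes the adaptor used by all TLRs except TLR3 and by the receptors of the interleukin-1 family. The gene lies on chromosome 9 (119335934 to 119341411, minus strand). Its libraries A, B and C had 102.8, 95.4 and 94.1 CPM without stimulation, 287.5, 242.5 and 220.1 CPM with LPS and 174.4, 161.7 and 182.4 CPM with IFN-β. The 3 groups were apart, with LPS highest and IFN-β between. LPS raised *Myd88* by 1.36 on the log2 scale (SE 0.10, adjusted p = 4.95e-07) and IFN-β by 0.83 (SE 0.10, adjusted p = 6.96e-05), and the IFN-β response was lower than the LPS response by -0.53 (SE 0.10, adjusted p = 0.000964). Its exons share 290 bases, 11.3% of their length, with *Acaa1a* on the opposite strand. *Acaa1a* rose with both stimuli too, from 94.6 ± 5.2 CPM to 160.3 ± 9.0 CPM with LPS and 176.5 ± 17.3 CPM with IFN-β. Since the strand setting of the counting was not given, reads of the shared bases cannot be assigned to either gene here.

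*Tirap*, which bridges TLR4 and MyD88, had the smallest differences from unstimulated DCs. It lies on the same chromosome (35184551 to 35200291, minus strand). Its level in libraries A, B and C was 27.2, 25.7 and 23.5 CPM without stimulation, 32.5, 30.3 and 26.0 CPM with LPS and 27.6, 26.1 and 24.0 CPM with IFN-β. The groups overlapped, while library A was highest and C lowest in each. The log2 difference was 0.22 with LPS (95% interval 0.00 to 0.43, adjusted p = 0.0662) and 0.02 with IFN-β (-0.19 to 0.24, adjusted p = 0.854), and -0.19 between the stimuli (adjusted p = 0.123). With the letters as a block the difference under LPS and that between the stimuli passed the threshold (adjusted p = 0.00488 and 0.0139), and that under LPS did so with DESeq2 (0.0380) and without LPS library C (0.0150). With library size only the differences were -0.37 with LPS and -0.28 with IFN-β (adjusted p = 0.00250 and 0.0170) and 0.09 between the stimuli. *Myd88* exceeded *Tirap* 7.33 ± 0.29 times per exon base at rest, 16.2 ± 0.81 times after LPS and 12.8 ± 1.5 times after IFN-β (SD, n = 3), and the groups did not overlap. *Gm39318*, an antisense RNA that covers 9.05% of the *Tirap* exon bases, had at most 5 counts in any library.

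*Ticam1* encodes TRIF, the adaptor that TLR3 and TLR4 use for the interferon branch. It lies on chromosome 17 (56269319 to 56276786, minus strand) and shares exons with no other gene. Libraries A, B and C held 31.8, 28.8 and 26.7 CPM without stimulation, 49.1, 52.0 and 43.4 CPM with LPS and 38.3, 37.1 and 34.9 CPM with IFN-β. As for *Myd88*, the groups were apart and IFN-β lay between. *Ticam1* rose by 0.73 (SE 0.09, adjusted p = 2.56e-05) with LPS and by 0.34 (SE 0.09, adjusted p = 0.00895) with IFN-β, and the responses differed by -0.39 (SE 0.09, adjusted p = 0.00363). With library size only these values were 0.15, 0.03 and -0.11, and none was called. Per exon base *Myd88* exceeded *Ticam1* 3.90 ± 0.17 times without stimulation, 6.03 ± 0.70 times with LPS and 5.48 ± 0.53 times with IFN-β, where the stimulated groups overlapped each other and not the unstimulated one.

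*Ticam2* encodes TRAM, which links TRIF to TLR4, and lies on chromosome 18 (46557291 to 46574533, minus strand). Its libraries A, B and C had 37.7, 34.4 and 33.3 CPM without stimulation, 51.4, 44.4 and 42.7 CPM with LPS and 45.2, 37.3 and 37.7 CPM with IFN-β. The LPS libraries were all above the unstimulated ones, while the IFN-β libraries overlapped both groups. LPS raised *Ticam2* by 0.39 (SE 0.10, adjusted p = 0.00428), which turned to -0.19 (0.0512) with library size only. The difference with IFN-β was 0.19 (95% interval -0.03 to 0.41, adjusted p = 0.136), and that between the stimuli was -0.20 (adjusted p = 0.111). With the letters as a block, these passed the threshold too (adjusted p = 0.00867 and 0.00481). *Ticam2* shares 838 exon bases, 14.5% of its length, with *Tmed7* on the same strand, which rose by 0.51 (SE 0.12) with LPS and 0.45 (SE 0.12) with IFN-β, and the part of shared reads was not tested.

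*Irak4* is the first kinase of the Myddosome and lies on chromosome 15 (94543643 to 94581815, plus strand). It had 48.9, 42.0 and 39.2 CPM in unstimulated libraries A, B and C, 38.6, 35.9 and 32.9 CPM with LPS and 45.02, 40.4 and 40.6 CPM with IFN-β. The LPS libraries were the lowest, with the highest of them just under the lowest unstimulated library. *Irak4* fell with LPS (log2 -0.28, SE 0.09, adjusted p = 0.0230). The call was lost without unstimulated library A or LPS library B or C (adjusted p 0.0531 to 0.0870) and with DESeq2 (0.0550). With IFN-β the difference was -0.04 (95% interval -0.25 to 0.16, adjusted p = 0.726), or -0.35 (0.00263) with library size only. Between the stimuli it was 0.23 (adjusted p = 0.0643), which passed the threshold with the letters as a block (0.00283) and was 0.51 (0.000230) with library size only. *Twf1*, on the opposite strand, shares 7.87% of the *Irak4* exon bases and had 63.8 ± 4.2, 76.7 ± 5.8 and 61.0 ± 3.9 CPM in the 3 groups.

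*Irak1*, the kinase that IRAK4 phosphorylates and that joins TRAF6, had the largest decrease of the 10 genes with either stimulus. It lies on chromosome X (74013914 to 74023918, minus strand). Libraries A, B and C had 75.3, 72.0 and 77.1 CPM without stimulation, 36.6, 39.6 and 38.1 CPM with LPS and 54.6, 57.3 and 53.0 CPM with IFN-β. The groups were apart, in the order opposite to that of *Myd88*. *Irak1* fell by 0.97 on the log2 scale with LPS (SE 0.06, adjusted p = 1.76e-07), a 1.96-fold lower level, and fell by 0.44 with IFN-β (SE 0.06, adjusted p = 0.000184). The response to IFN-β was 0.53 above that to LPS (SE 0.06, adjusted p = 4.26e-05). Raw counts fell as well, from 3199 ± 223 to 1211 ± 164 with LPS and 2136 ± 207 with IFN-β.

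*Irak2*, a kinase of the same complex that is known for sustained signalling, lies on chromosome 6 (113638467 to 113695026, plus strand). Its level in libraries A, B and C was 113.5, 100.1 and 90.9 CPM without stimulation, 261.0, 232.6 and 204.3 CPM with LPS and 188.7, 176.2 and 177.9 CPM with IFN-β. Again the groups were apart. It rose by 1.20 (SE 0.10, adjusted p = 1.94e-06) with LPS and by 0.83 (SE 0.10, adjusted p = 9.73e-05) with IFN-β, the largest change of the 10 genes under IFN-β, with that of *Myd88* within its SE. The responses differed by -0.36 (SE 0.10, adjusted p = 0.0128), or by -0.08 (0.399) with library size only. *Gm43963*, on the opposite strand over 4.44% of its exon bases, had at most 12 counts in any library. Over the 9 libraries the nearest patterns among the tested genes outside the 10 were those of *Tnks1bp1*, *Atp1b3* and *Fbxo7*, at Euclidean distances of 0.172, 0.180 and 0.182 between mean-centred log2 values. *Tnks1bp1* changed by 1.19 with LPS and 0.80 with IFN-β.

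*Irak3*, the inhibitory member, separated the stimuli. The gene lies on chromosome 10 (120141648 to 120202130, minus strand). Libraries A, B and C had 58.6, 52.9 and 58.1 CPM without stimulation, 182.2, 166.2 and 157.0 CPM with LPS and 65.4, 57.0 and 60.7 CPM with IFN-β. The LPS libraries stood apart and the other groups overlapped each other. *Irak3* rose by 1.58 with LPS (SE 0.08, adjusted p = 4.28e-08), and with IFN-β its difference was 0.11 (95% interval -0.06 to 0.29, adjusted p = 0.272), or -0.20 (0.0268) with library size only. The difference between the responses was -1.46 (SE 0.08, adjusted p = 2.11e-07). *Tmbim4* shares 5.22% of its exon bases on the opposite strand and rose with both stimuli, by 1.16 (SE 0.09) with LPS and 0.71 (SE 0.09) with IFN-β. For *Cd14* the nearest patterns were those of *6530402F18Rik*, *Ppp1r9a* and *Mapkbp1* (distances 0.445, 0.501 and 0.515 over 9 libraries), of which *Ppp1r9a* changed by 3.55 with LPS and -0.51 with IFN-β.

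The makeup of the IRAK family differed between the groups on a scale that library scaling does not touch. The groups did not overlap in the share of any of its 4 genes. The shares in a library are parts of the same total, so these are not 4 separate differences. They have no background over other genes beside them. *Irak1* supplied 25.3% ± 1.6 of IRAK counts per exon base at rest, 7.14% ± 0.80 after LPS and 15.0% ± 0.93 after IFN-β (SD, n = 3). *Irak3* supplied 24.5% ± 1.4, 40.3% ± 0.77 and 21.4% ± 0.77. For *Irak2* the shares were 36.5% ± 2.2, 46.3% ± 1.5 and 52.8% ± 0.12, and for *Irak4* they were 13.7% ± 0.79, 6.27% ± 0.069 and 10.8% ± 0.25. *Irak2* had its highest share with IFN-β and *Irak3* its highest with LPS. The shares of *Irak3* and *Irak4* were lower with IFN-β than at rest, although the main model called neither gene there. Their log2 differences were 0.11 and -0.04 (adjusted p = 0.272 and 0.726 by edgeR's quasi-likelihood test). *Irak3* and *Irak1* were near parity without stimulation, at ratios of 0.997, 0.942 and 0.967 in libraries A, B and C. The ratios were 6.39, 5.39 and 5.29 with LPS and 1.54, 1.28 and 1.47 with IFN-β. With 3 libraries against 3, an exact permutation test cannot give a p-value under 0.1. Among the 4 adaptors, *Myd88* supplied 64.4% ± 0.79 without stimulation, 76.3% ± 1.4 under LPS and 73.3% ± 1.9 under IFN-β.

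**Figure D4:**
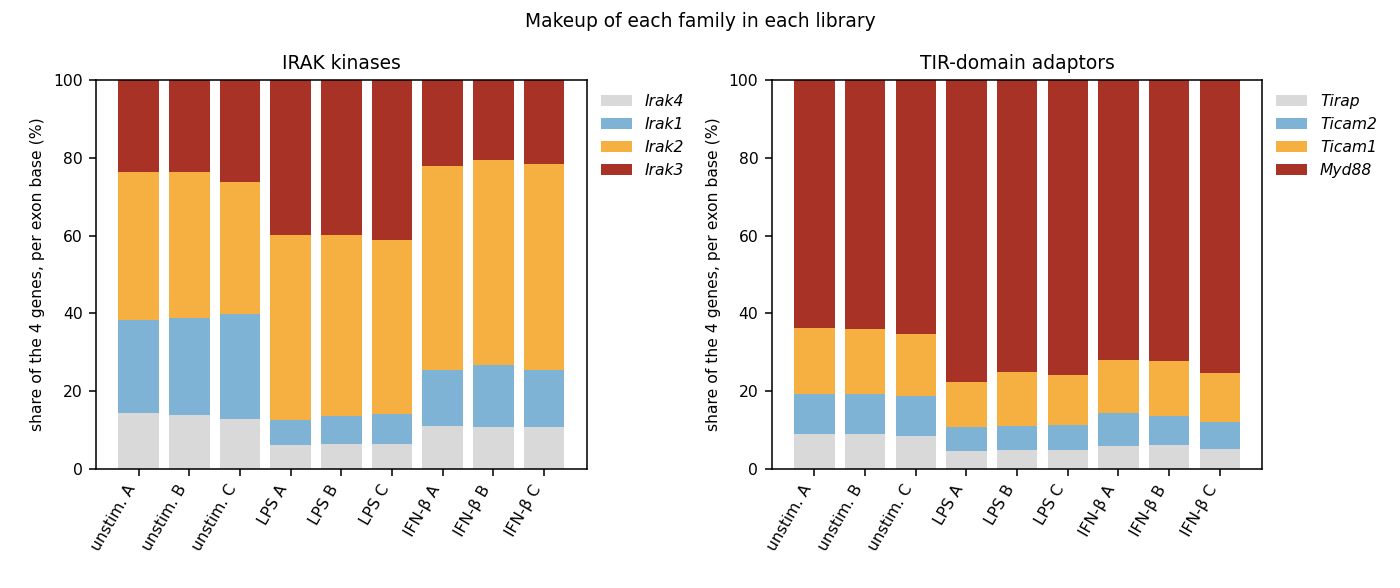
Share in percent (y axis) of each IRAK gene (left) and each adaptor gene (right) in the counts per exon base of its family, in each of the 9 libraries. With LPS the Irak3 share is 39.8 to 41.2% and the Irak1 share 6.25 to 7.79%, and the adaptor panel shows the Myd88 share above 72% in every stimulated library.

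*Traf6* encodes the ubiquitin ligase to which the Myddosome passes its signal. It lies on chromosome 2 (101678429 to 101701669, plus strand) and shares exons with no other gene. It had 61.6, 66.7 and 63.1 CPM in unstimulated libraries A, B and C, 100.1, 108.2 and 114.2 CPM with LPS and 98.0, 96.9 and 101.7 CPM with IFN-β. Both stimulated groups lay above the unstimulated one and overlapped each other. *Traf6* rose by 0.75 with LPS (SE 0.07, adjusted p = 2.11e-06) and by 0.63 with IFN-β (SE 0.07, adjusted p = 3.18e-05). With library size only the rise with LPS was 0.17 (0.0762) and was no longer called. The difference between the stimuli was -0.12 (95% interval -0.26 to 0.02, adjusted p = 0.151). It passed the threshold without LPS library A (0.0498), and it turned to 0.15 (0.135) with library size only. Its relative *Traf3*, which serves the TRIF branch, had a log2 difference of -0.10 with each stimulus (adjusted p = 0.137 with LPS and 0.179 with IFN-β). Per exon base the ratio of *Traf6* to *Traf3* was 0.885 ± 0.041 at rest, 1.61 ± 0.18 after LPS and 1.47 ± 0.046 after IFN-β.

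The genes around these 10 were taken as 5 lists with 56 genes, of which 55 were tested, since *Sarm1* had at most 4 counts in any library. LPS changed 48 of them (36 higher, 12 lower) and IFN-β 38 (31 higher, 7 lower), shares of 87.3% and 69.1% beside the 68.2% and 46.9% of all genes. The responses differed in 34, with 10 higher and 24 lower under IFN-β, a share of 61.8% beside 49.1% of all genes. With library size only the tallies were 23 higher and 24 lower with LPS, 19 higher and 17 lower with IFN-β and 21 higher and 16 lower between the stimuli. With the letters as a block 50, 43 and 37 genes were called, while the calls over all genes rose as well. Of 5 genes of LPS recognition, LPS raised 3 and lowered 1, and IFN-β raised 4 (with library size only 2 higher and 1 lower, and 2 higher). That is 80% with each stimulus, beside 68.2% and 46.9% of all genes. *Cd180*, a TLR4-like surface receptor, rose by 1.76 (SE 0.22) with LPS and 2.10 (SE 0.22) with IFN-β, and its partner *Ly86* rose by 0.89 (SE 0.20) and 1.52 (SE 0.20). The difference of *Cd180* between the stimuli was 0.34 (adjusted p = 0.217), which passed the threshold with the letters as a block (0.000965).

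In the list of ubiquitin ligases and kinases that relay the signal from TRAF6 through TAK1 to IKK, LPS raised 12 of 18 and lowered 5, and IFN-β raised 9 and lowered 2, shares of 94.4% and 61.1% beside 68.2% and 46.9% of all genes. With library size only the tallies turned, to 6 higher and 9 lower with LPS and 4 higher and 8 lower with IFN-β. *Peli1*, a ligase that acts with IRAK proteins, rose by 3.36 (SE 0.15) with LPS and 1.75 (SE 0.14) with IFN-β, while its homolog *Peli2* changed by -1.69 (SE 0.08) and -0.44 (SE 0.08). *Rnf31*, the catalytic subunit of the linear ubiquitin ligase, rose by 2.0 (SE 0.11) and 1.43 (SE 0.10). The TRIF branch had 9 genes, of which LPS raised 5 and lowered 1 and IFN-β raised 4 and lowered 1. These shares of 66.7% and 55.6% stand beside 68.2% and 46.9% of all genes, so the LPS share was not above the background. Library size only gave 4 higher and 5 lower with LPS and 4 higher and 2 lower with IFN-β. The TBK1-binding scaffolds *Tank* and *Azi2* rose by 2.30 (SE 0.10) and 1.81 (SE 0.12) with LPS and by 1.12 (SE 0.10) and 1.31 (SE 0.11) with IFN-β. Their relative *Tbkbp1* fell with LPS (log2 -0.71, SE 0.16) and had a difference of 0.08 with IFN-β (adjusted p = 0.708).

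Of 16 tested inhibitors of TLR signalling, LPS raised 10 and lowered 4, and IFN-β raised 8 and lowered 3, shares of 87.5% and 68.8% beside 68.2% and 46.9% of all genes. With library size only 7 were higher and 7 lower with LPS, and 4 higher and 6 lower with IFN-β. *Tnfaip3*, which encodes the deubiquitinase A20, rose by 3.13 (SE 0.11) with LPS and 0.99 (SE 0.10) with IFN-β. *Zc3h12a*, which encodes an RNase that degrades cytokine mRNA, rose by 2.55 (SE 0.11) with LPS and had a difference of 0.11 with IFN-β (adjusted p = 0.434), and the responses differed by -2.45 (SE 0.11, adjusted p = 6.60e-08). *Trafd1* rose by 2.18 (SE 0.14) and 1.71 (SE 0.14). *Il1rl1*, the receptor of interleukin-33, changed by -4.50 (SE 0.30) with LPS, where 16 to 38 counts were left per library, and by -1.50 (SE 0.23) with IFN-β.

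All 7 scaffolds and interferon regulatory factors linked to TLRs changed with each stimulus, 6 higher and 1 lower. LPS changed 68.2% and IFN-β 46.9% of all genes. Library size only gave 4 higher and 2 lower with LPS and 5 higher and 1 lower with IFN-β. *Irf7* rose by 3.34 (SE 0.53) with LPS and 3.12 (SE 0.52) with IFN-β, and *Irf1* by 2.40 (SE 0.19) and 2.01 (SE 0.18). The responses differed in 2 of the 7, the adaptors *Pik3ap1* (-0.33, SE 0.12, adjusted p = 0.0387) and *Scimp* (-0.34, SE 0.10, adjusted p = 0.0127). This share of 28.6% was below the 49.1% of all genes. With the letters as a block *Irf1* (-0.39, adjusted p = 0.0911 without the block and 0.00196 with it) was called too. The call for *Pik3ap1* was lost without unstimulated library B, LPS library A or IFN-β library B or C (adjusted p 0.0590 to 0.137). Median log2 changes with LPS were 0.89 for LPS recognition, 0.46 for the relay, 0.36 for the TRIF branch, 0.60 for the inhibitors and 1.39 for scaffolds and regulatory factors, against -0.04 over all genes. With IFN-β they were 0.51, 0.24, 0.22, 0.25 and 1.06, against -0.02. With library size only the medians of the relay and the TRIF branch turned to -0.13 and -0.22 with LPS, and those of the relay, the TRIF branch and the inhibitors to -0.07, -0.09 and -0.05 with IFN-β.

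**Figure D5:**
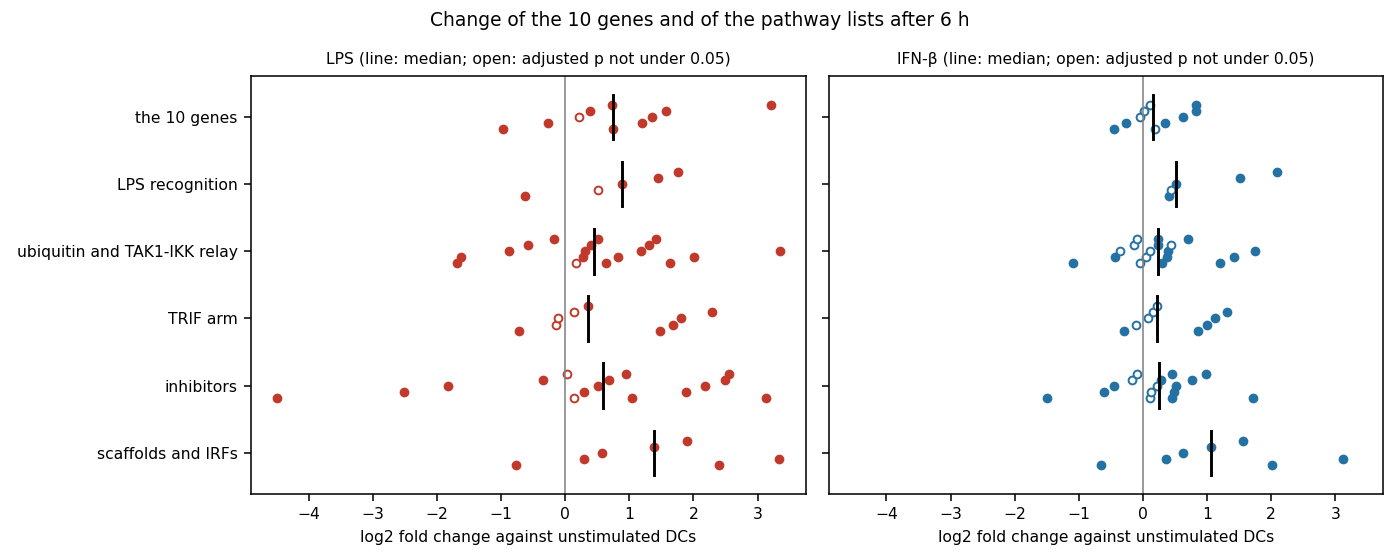
Log2 fold change against unstimulated DCs (x axis) of each gene in the 10-gene set and in the 5 pathway lists, for LPS (left) and IFN-β (right); lines are medians and open points have an adjusted p that is not under 0.05. Medians lie to the right of 0 in every row with the scaling used; with library size only they lie to the left of 0 for the relay and the TRIF branch with both stimuli and for the 10 genes and the inhibitors with IFN-β. With LPS the inhibitors run from -4.50 to 3.13.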

How the data were processed

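Total RNA depleted of ribosomal RNA was sequenced in paired ends. The submitters' processing notes name Trim Galore 0.6.0, STAR 2.7.8a and GRCm38 (mm10). The values deposited by the authors are STAR's raw counts of each gene, not normalized. The strand setting was not given in the sources used here. Coordinates and exon lengths are from GENCODE M21 (GRCm38), which held 55230 of the 55471 identifiers of the counts, and the release behind the counts may differ.

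With edgeR 4.0.16 in R 4.3.3, genes were kept by filterByExpr (16260 of 55471) and scaled with TMM factors, and 1 quasi-likelihood model with a term per group was fitted to all 9 libraries. Adjusted p-values (Benjamini-Hochberg) are over all tested genes, and the SE is the absolute log2 fold change divided by the square root of F. Log2 values of single libraries used a pseudocount of 0.5 CPM. The fit was also run on simulated counts in which few genes changed, as many up as down. That run could not test the scaling, since far more genes changed in these data. Members had between 846 and 24167 counts per library, and, without molecular identifiers, reads need not stand for separate molecules.

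The letters pair the samples by their deviations from the group means: all 9 same-letter pairs correlated across genes (r = 0.134 to 0.546), and the 18 other pairs ran from -0.480 to 0.0623. The labels do not say what a letter marks. The main model has no block, as in the study's methods, and values with the replicate letters as a block are given where they change a call of a gene named. No 2 libraries of a group agreed within sampling noise.

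The members and lists were chosen with earlier results of these data known. Named were every member, *Tlr4*, *Ly96*, *Il12b*, *Ifit1*, the 2 called genes with the largest change per list and comparison, and the 3 nearest patterns to the member with the largest change in each comparison. Genes that overlap a member, single marker genes and *Traf3* were named outside this rule, after their values were seen. Alternatives were DESeq2 1.42.0, upper-quartile factors, scaling by library size alone, testing all genes, at least 10 counts in every library, the 2 groups compared alone, the block, leaving out each library, an adjusted p under 0.01 and an absolute log2 change of 1 or more.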

Additional observations from a re-analysis of the deposited data

Results flagged for a closer look

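*Cd14* and *Tlr4* are listed here because both stimuli changed each of them, in opposite directions, and the difference itself passed the test. *Cd14* rose with LPS and was lower with IFN-β, and its IFN-β response minus its LPS response was -3.48 (SE 0.09, adjusted p = 3.09e-09 by edgeR's quasi-likelihood test), with all 3 IFN-β libraries below all 3 LPS libraries. *Tlr4* was lower with LPS and rose with IFN-β, and the same difference was 1.03 (SE 0.12, adjusted p = 5.11e-05). Both smaller changes, with IFN-β, were lost when single libraries were left out (adjusted p up to 0.0918 for *Cd14* and 0.0746 for *Tlr4*), and that of *Tlr4* also with library size only (0.09, adjusted p = 0.507). The groups of 3 libraries are too small for a test of single outlying libraries.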

How the results depend on the processing

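Each member's log2 fold change was recomputed under 16 other fits in each of the 3 comparisons. Scaling by library size only moved the median of all genes by -0.58 (LPS), -0.31 (IFN-β) and 0.27 (IFN-β against LPS), and the share of higher genes among those called from 48.1%, 50.3% and 52.5% to 21.9%, 22.3% and 77.9%. This scaling moved all 10 members by nearly that same shift, so subtracting it returns the values reported within 0.01. That follows from the scaling and is no check of the directions. Without subtracting it, *Tirap* and *Ticam2* reversed under LPS (-0.37 and -0.19) and under IFN-β (-0.28 and -0.12), *Irak3* under IFN-β (-0.20), and *Tirap*, *Ticam2* and *Traf6* between the stimuli (0.087, 0.075 and 0.15). *Ticam1* (0.15) and *Traf6* (0.17) lost their calls under LPS, *Ticam1* (0.03) under IFN-β, and *Ticam1* (-0.11) and *Irak2* (-0.08) between the stimuli, while *Irak4* was called under IFN-β (-0.35). *Tirap* under IFN-β, near 0, also reversed with upper-quartile factors (-0.052) and, leaving out single libraries, ranged from -0.031 to 0.078, as did *Irak4* from -0.11 to 0.046. With the replicate letters as a block, 10, 7 and 9 members were called in place of 9, 6 and 6, through *Tirap* (0.21 with LPS, -0.19 between stimuli), *Ticam2* (0.19 with IFN-β, -0.20) and *Irak4* (0.23), and no other member call changed. The block raised the calls over all genes too. *Irak4* between the stimuli was also called with upper-quartile factors, with no filter and with the 2 groups alone (0.25 in each), with library size only (0.51), and without unstimulated library A or C (0.24 in each), and *Ticam2* and *Tirap* between the stimuli without IFN-β library A (-0.30) and LPS library C (-0.28). With an absolute log2 change of 1 or more required, 4 members under LPS, 0 under IFN-β and 2 between the stimuli were called, where the largest member change under IFN-β was 0.83, edgeR and DESeq2 both gave 0 also at an unadjusted p under 0.05, and 27, 14 and 13 pathway genes were. No share over all genes was taken at that size, so these counts have no background beside them. *Tlr4* and *Ly96* under IFN-β (0.09 and 0.21) and *Pik3ap1* and *Scimp* between the stimuli (-0.05 and -0.06) lost their calls with library size only.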

Other observations

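A pair of interferon-induced genes, picked after their values were seen, spread widely over the unstimulated libraries, with no test of that spread. *Irf7* ran from 33.3 to 228.2 CPM and *Ifit1* from 11.2 to 40.7 CPM over the 3 unstimulated libraries. Over the same libraries the coefficient of variation of the 10 members was between 3.50% for *Irak1* and 11.5% for *Irak4*.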
